A study of Homo sapiens with 16 samples.

Results

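The HOX genes of BE2C neuroblastoma cells, which lie in 4 chromosomal clusters named HOXA to HOXD, were described by 2 histone marks. H3K27me3 is a mark of repressed genes and H3K4me1 a mark of enhancers and of the flanks of active starts. The rule took the HOX genes of the 4 clusters together with each cluster's span from its first to its last gene, and it did not use any measured value. It gave 38 genes, 10 in HOXA, 10 in HOXB, 9 in HOXC and 9 in HOXD, out of 20136 protein-coding genes of the annotation. In the hg19 assembly the spans were chr7:27139973-27239710 for HOXA (99.7 kb, HOXA2 to HOXA13), chr17:46605888-46806112 for HOXB (200.2 kb), chr12:54332615-54449814 for HOXC (117 kb) and chr2:176957449-177055635 for HOXD (98.2 kb).

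The marks were measured by CUT&Tag, in which an antibody steers the Tn5 transposase to the marked chromatin so that DNA is cut and tagged there. BE2C is an established MYCN-amplified neuroblastoma line. The siRNA experiment compared the control siRNA (siCtrl) with a single siRNA against KDM6B (siKDM6B #33), and the compound experiment compared DMSO at 0.1% with GSK-J4, an inhibitor of the KDM6 demethylases, at 2.5 µM. Every group was collected after 72 h and held 2 libraries for each mark, which gave 16 libraries in 8 groups. The study names them biological replicates, and the labels do not say whether they came from separate cultures, so the spread given here may be partly technical.

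HOX genes encode the transcription factors that give cells their position along the head to tail axis, and the order of the genes in a cluster follows the order in which they act along that axis. Genes of low number (paralog groups 1 to 4) act towards the head and those of high number (9 to 13) towards the tail, where paralogs are genes at the same place in different clusters. Outside their territory HOX genes are held silent by the Polycomb complexes, whose PRC2 enzyme EZH2 writes H3K27me3 over whole clusters. KDM6B is an enzyme that removes this mark. KDM6B protein or RNA was not measured here, so the lists of regions hold no check of the knockdown.

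Each library was deposited as a list of islands (broad enriched regions) and a list of narrow peaks, called without the other libraries. Islands numbered 7174 to 16675 per H3K27me3 library and 17764 to 24916 per H3K4me1 library, and they covered 53.7 to 89.8 Mb and 68.0 to 115 Mb. The genome background, the tags that the peak caller expected by chance, was 8.41 to 15.2 tags per 10 kb for H3K27me3 and 13.7 to 30.2 for H3K4me1. GSK-J4 H3K27me3 replicate 1 stood apart from its replicate, with 16675 islands of median width 3000 bp against 8005 islands of 7400 bp. KDM6B-knockdown libraries had higher genome background than siCtrl libraries for both marks (14.9 and 15.2 against 11.2 and 11.3 tags per 10 kb for H3K27me3), and the part of this in the differences below was not tested. At the starts of the blood markers PTPRC and CD3E neither mark had an island in any library, and SPI1, another blood marker, had no H3K27me3 island and an H3K4me1 island over 65.2% of its start in 4 of 8 libraries. The adrenergic neuroblastoma regulators HAND2, GATA3 and ISL1 had no H3K27me3 island at their starts in any of the 8 libraries. Other adrenergic genes did have it, with PHOX2A at 84.7 to 100% in 3 compound libraries, and 2 enzyme genes, DBH and TH, in all 4 compound libraries. In a comparison of 2 libraries with 2, a difference is called here when both treated libraries lie above or below both controls. The exact permutation p of such a difference is 0.33, the smallest that 2 against 2 can give, so no single difference could reach 0.05.

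Promoters of 5 HOX genes show the range of states found in the clusters. A start is the annotated 5′ end of a gene with 1 kb on each side, and its coverage is the share of it inside islands. For 12 of the 38 genes this 5′ end lies over 1 kb from the start of the representative (MANE Select) transcript, as at HOXC4, where the 2 are 36904 bp apart. By islands, HOXA11 was covered by the mark measured over its whole start in all 16 libraries, and HOXB1 had H3K27me3 islands alone. HOXC4 had H3K4me1 islands alone in the siRNA experiment and islands of both marks in the compound experiment. HOXD8 had no H3K27me3 island in any library and an H3K4me1 island in the knockdown libraries alone, with 1 narrow H3K4me1 peak in siCtrl replicate 2. HOXD4 had no island of either mark, and single narrow peaks at its start in 1 H3K27me3 and 2 H3K4me1 libraries. The promoters are those of RefSeq (GRCh38.p14), placed on hg19 by an exact and unique match, from 250 bases before to 50 bases after the start, 5′ to 3′. Capitals mark CG dinucleotides, the sites of DNA methylation, which are dense in the CpG islands to which Polycomb complexes are drawn.
HOXA11, chr7:27224802-27225101 (minus strand): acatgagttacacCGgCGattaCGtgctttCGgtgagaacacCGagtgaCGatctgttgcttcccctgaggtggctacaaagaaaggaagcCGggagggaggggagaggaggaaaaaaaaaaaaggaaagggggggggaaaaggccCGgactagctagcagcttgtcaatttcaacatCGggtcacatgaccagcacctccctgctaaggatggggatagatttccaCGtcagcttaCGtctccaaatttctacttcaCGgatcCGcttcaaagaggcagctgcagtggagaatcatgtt
HOXB1, chr17:46608324-46608623 (minus strand): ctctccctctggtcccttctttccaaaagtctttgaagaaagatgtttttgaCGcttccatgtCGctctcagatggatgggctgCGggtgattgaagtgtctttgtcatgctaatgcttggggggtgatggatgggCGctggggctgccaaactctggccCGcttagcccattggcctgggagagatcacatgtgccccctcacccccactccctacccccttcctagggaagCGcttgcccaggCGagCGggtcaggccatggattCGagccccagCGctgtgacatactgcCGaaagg
HOXC4, chr12:54410422-54410721 (plus strand): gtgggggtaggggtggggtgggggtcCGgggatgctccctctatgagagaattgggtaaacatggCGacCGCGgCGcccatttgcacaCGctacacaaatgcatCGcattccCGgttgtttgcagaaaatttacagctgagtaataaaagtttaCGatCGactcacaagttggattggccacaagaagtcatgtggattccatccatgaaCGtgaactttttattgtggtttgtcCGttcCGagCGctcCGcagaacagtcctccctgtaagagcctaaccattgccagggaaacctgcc
HOXD8, chr2:176994183-176994482 (plus strand): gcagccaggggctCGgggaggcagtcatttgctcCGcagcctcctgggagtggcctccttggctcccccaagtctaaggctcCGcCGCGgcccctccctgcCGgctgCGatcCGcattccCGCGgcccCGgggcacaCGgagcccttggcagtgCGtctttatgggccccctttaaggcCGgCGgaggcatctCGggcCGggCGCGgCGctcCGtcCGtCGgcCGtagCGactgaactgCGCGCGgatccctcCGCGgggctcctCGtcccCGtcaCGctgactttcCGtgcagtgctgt
HOXD4, chr2:177016028-177016327 (plus strand): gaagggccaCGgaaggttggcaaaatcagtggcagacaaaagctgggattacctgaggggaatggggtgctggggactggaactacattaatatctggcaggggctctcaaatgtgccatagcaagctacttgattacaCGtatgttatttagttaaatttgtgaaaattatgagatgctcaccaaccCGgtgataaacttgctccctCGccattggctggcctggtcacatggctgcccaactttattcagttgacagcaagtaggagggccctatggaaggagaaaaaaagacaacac
These 300-base promoters held 13, 11, 15, 34 and 4 CG in the order printed. Entries for 20 of the 38 genes were in the table, with 27 promoters and a median of 22 CG, against 14 over all 35116 promoters. Over the 2-kb starts the 38 genes had a median of 105 CG (49 to 218) against 90 over all protein-coding genes. The 21 starts fully covered by H3K27me3 in all 8 libraries had a median of 106 (49 to 196). The 5 starts without an H3K27me3 island, all in HOXD, had a median of 174 (87 to 218), and these ranges overlap.

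H3K27me3 covered HOXA nearly whole, most of HOXB and the tail end of HOXD, and in the siRNA experiment it stopped partway along HOXC. In the siCtrl libraries islands covered 99.0 and 99.2% of the HOXA span, 79.6 and 84.5% of HOXB, 31.6 and 37.9% of HOXC and 18.9 and 19.7% of HOXD. The gaps between neighbouring clusters in this order were larger than the differences between replicates. Of the 38 starts, 21 were covered to 100% in all 8 H3K27me3 libraries and 5 had no island in any of them. The 21 comprised 9 of 10 HOXA genes (all but HOXA4), 9 of 10 HOXB genes (all but HOXB2), HOXC12, HOXC13 and HOXD12. HOXA4 was at 80.1% in DMSO replicate 1 and 70.1% in GSK-J4 replicate 1, and HOXB2 at 66.5% in GSK-J4 replicate 1, with 100% elsewhere. The 5 without an island were HOXD1, HOXD3, HOXD4, HOXD8 and HOXD9, all in the anterior and central part of HOXD. Within HOXD the mark stayed with the genes of the tail end. HOXD12 was at 100% in all 8 libraries and HOXD13, the last gene, at 100% in 7 of 8 and 87.6% in GSK-J4 replicate 1.

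The boundary inside HOXD fell in the same interval, between the HOXD10 and HOXD9 starts, in 7 of the 8 libraries. The HOXD10 5′ end used here lies 7988 bp from its MANE Select start, which was past the last covered base in those 7. Measured from the HOXD13 end of the span, the last covered base was at 20.8 and 20.4 kb in siCtrl, 16.4 and 17.4 kb after knockdown, 17.8 kb in both DMSO libraries and 16.4 kb in GSK-J4 replicate 2. Both knockdown libraries thus ended short of both siCtrl libraries. In GSK-J4 replicate 1, the library that stood apart, a separate island put the last covered base at 83.4 kb. Within HOXC the siRNA libraries ended at 47.4 to 48.8 kb from the HOXC13 end, between the HOXC10 and HOXC6 starts. Whether paralogs shared a state differed between groups. All 4 genes of paralog group 13 were covered to 100% in both siCtrl and both knockdown libraries. The head-end genes of paralog group 4 were covered to 100% in siCtrl at HOXA4 and HOXB4 and had no H3K27me3 island at HOXC4 and HOXD4.

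**Figure D1:**
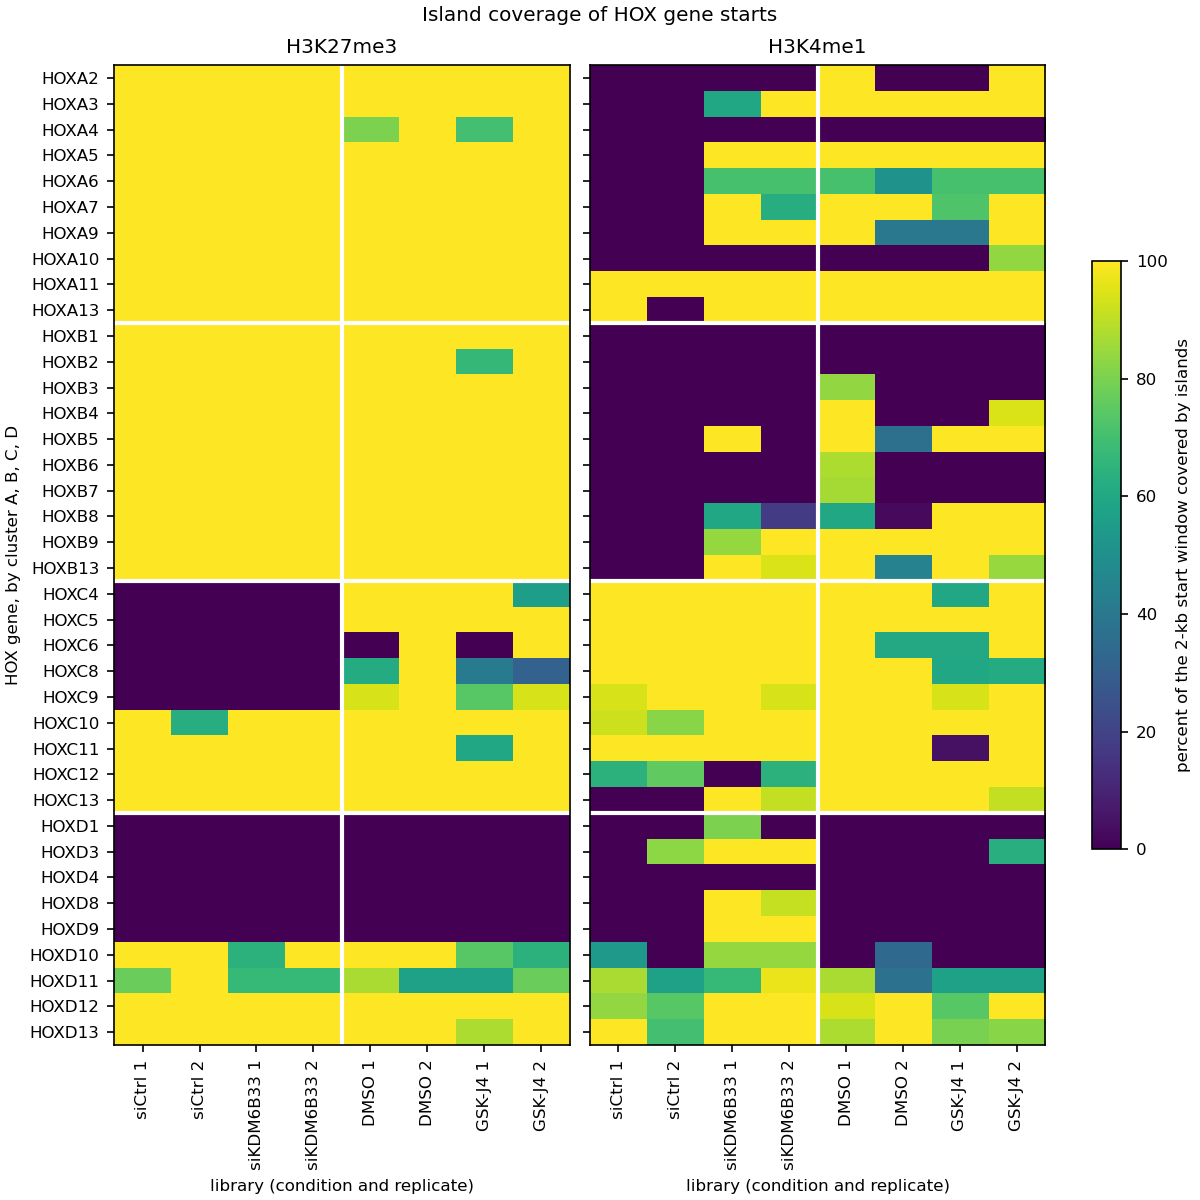
Coverage of each HOX start (1 kb on each side of the annotated 5′ end) by islands, in percent by colour, with the 38 genes in rows by cluster and the 16 libraries in columns by mark and group. H3K27me3 is at 100% in all 8 libraries at 9 of 10 HOXA and 9 of 10 HOXB starts, is at 0 at HOXC4 to HOXC9 in the 4 siRNA libraries and at 0 from HOXD1 to HOXD9 throughout, and H3K4me1 is at 0 over most of HOXA and HOXB in the siCtrl libraries.

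Islands of HOXA and HOXB were among the strongest H3K27me3 islands in the genome, and those of HOXD were not. The top HOXA island ranked 3 by island score in both siCtrl libraries and the top HOXB island 6 and 5, out of 10554 and 10591 islands. After knockdown, out of 15946 and 15774 islands, the HOXA rank was 7 and 5 and the HOXB rank 5 and 9. The HOXC island ranked 27 and 24 in siCtrl and 49 and 35 after knockdown, and the HOXD island 256 and 223 in siCtrl and 882 and 859 after knockdown. In DMSO, out of 7174 and 7397 islands, the ranks were 13 and 6 for HOXA, 5 in both for HOXB, 15 and 20 for HOXC and 511 and 278 for HOXD. In GSK-J4, out of 16675 and 8005 islands, they were 28 and 9 for HOXA, 10 and 6 for HOXB, 135 and 131 for HOXC and 1582 and 1867 for HOXD. Ranks in lists of different length are given side by side and not compared. The widest island over HOXA measured 105.6 and 105.4 kb in siCtrl, where 2 islands touched the span, and 57.8 and 82.4 kb after knockdown, 44.8 and 99.4 kb in DMSO and 39 and 69.6 kb in GSK-J4. A split of an island changes its rank and width without changing much of its coverage, so these 2 quantities say less about the level of the mark than the density given below.

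The 4 spans together were covered by H3K27me3 to an equal mean extent before and after KDM6B knockdown, while single spans differed in opposite directions. Islands covered 60.9 and 64.4% of the 4 spans together in siCtrl and 63.0 and 62.3% after knockdown. The means were equal at 62.6% (SD 2.50 and 0.467, n = 2 each), and the groups overlapped (exact permutation p = 1). Without overlap, coverage was lower in HOXA (97.4 and 96.4% against 99.0 and 99.2%) and HOXD (14.2 and 15.6% against 18.9 and 19.7%) and higher in HOXB (86.4 and 84.8% against 79.6 and 84.5%), and HOXC overlapped. At the starts, 0 of 38 HOX genes were called higher, where 2.64% of all protein-coding genes were. HOXD11 was the single start called lower, at 77.2 and 100% in siCtrl against 67.2% in both knockdown libraries. The background for lower starts was 1.04% of all genes and 5.41% of those with an island in at least 1 of the 4 libraries, so 1 of 38 is near the background, and the call was lost with islands joined within 2 kb. Over gene bodies, 0 of 38 were higher (8.25% of all genes) and 3 were lower (2.37% of all genes, with or without an island). These were HOXA3, HOXA13 and HOXD10, and HOXD10 was covered over 42.0 and 38.4% of its body in siCtrl and 2.54 and 11.5% after knockdown, at the boundary of the HOXD island. HOXA13 (84.8 and 87.9% against 81.8 and 57.5%) and HOXA3 (100% in both against 97.0 and 98.3%) differed by less.

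After GSK-J4 the picture at the starts was likewise close to the background. Islands covered 71.0 and 68.6% of the 4 spans in DMSO and 60.01 and 68.6% in GSK-J4, a difference of -5.47 percentage points (SD 1.70 and 6.04, exact permutation p = 0.67), and of -1.20 without GSK-J4 replicate 1. By cluster, HOXC (75.4 and 76.3% in DMSO, 70.6 and 73.5% in GSK-J4) and HOXD (16.0 and 17.1% against 13.4 and 14.6%) were lower without overlap, and HOXA and HOXB overlapped. Of the 38 starts 0 were higher, against 0.983% of all genes, and 2 were lower, against 1.03% of all genes and 4.64% of those with an island. The 2 were HOXC8 (61.6 and 100% in DMSO, 41.6 and 31.6% in GSK-J4) and HOXD10 (100% in both DMSO libraries, 74.2 and 64.2% in GSK-J4). HOXD10 is the gene at which the HOXD domain ended, short of its MANE Select start. At MANE Select starts, an alternative chosen after seeing the data, 1 start was called lower. Without GSK-J4 replicate 2, 7 starts were called lower. Over bodies 0 were higher (4.7% of all genes) and 7 were lower (3.2% of all genes, with or without an island). The 7 were HOXA13, HOXC4, HOXC6, HOXC8, HOXC13, HOXD10 and HOXD11. They are not separate stretches, since HOXC8 lies within HOXC6, HOXC6 overlaps HOXC4, and HOXD10 overlaps HOXD11. HOXD10, low after both treatments, was at 15.1% of its body in both DMSO libraries and at 4.33 and 2.54% in GSK-J4.

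**Figure D2:**
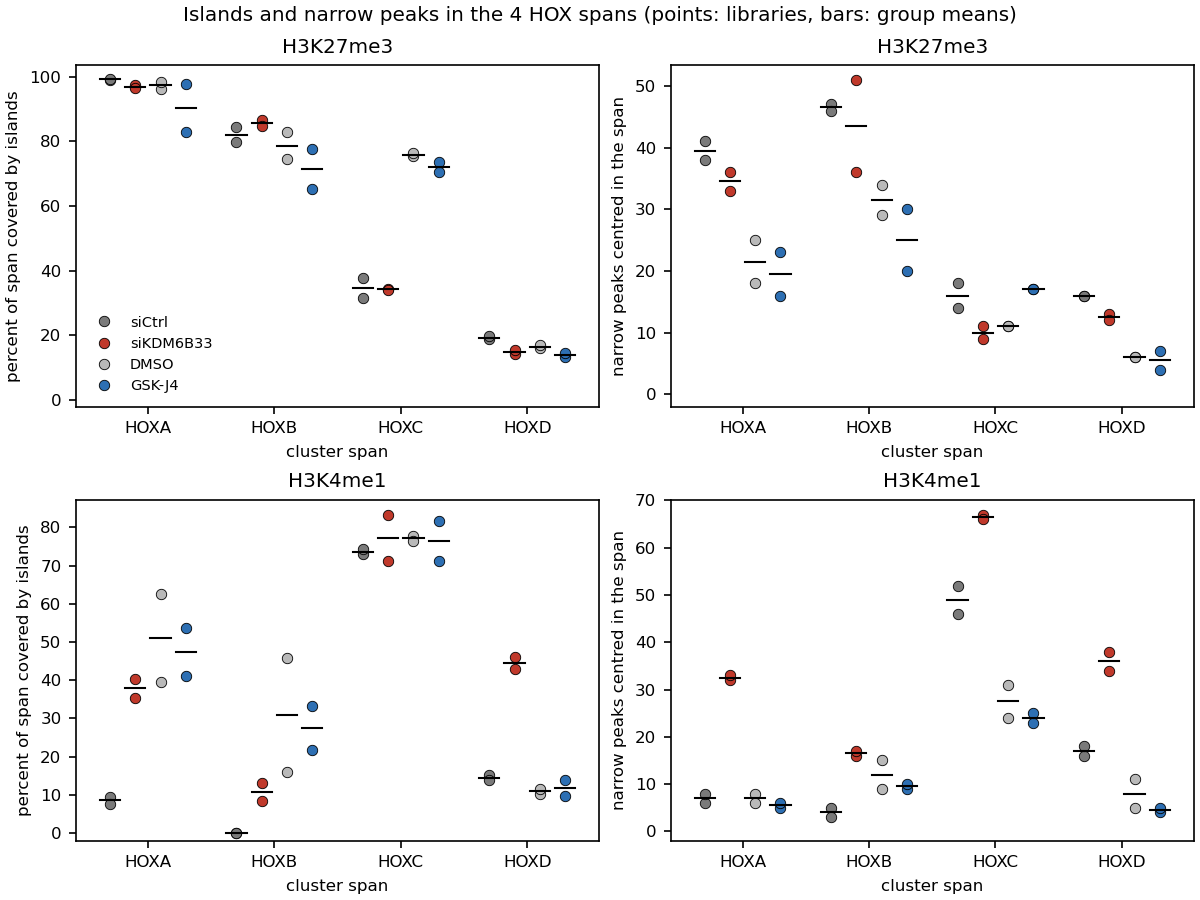
Island coverage of each cluster span in percent and the number of narrow peaks in it, by library, with points for the 2 libraries of each group and bars for their mean. HOXC H3K27me3 coverage lies at 31.6 to 37.9% in the siRNA libraries and 70.6 to 76.3% in the compound libraries, and HOXA, HOXB and HOXD H3K4me1 coverage is higher in both knockdown libraries than in both siCtrl libraries.

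While coverage of the 4 spans together overlapped between the groups, the density of H3K27me3 tags inside the covered stretches was lower after both treatments. Local tag density was read from the narrow peaks as the log2 ratio of the background expected around a peak to the genome background of the same library, averaged in bins of 10 kb. It is therefore relative to the depth of each library and exists only where a narrow peak was called. Over the 29 HOX bins with a peak in all 4 siRNA libraries, the mean density was 5.55 and 5.60 in siCtrl and 4.69 and 4.76 after knockdown. The means differed by -0.85 (5.58 ± 0.039 against 4.73 ± 0.047, SD, n = 2, exact permutation p = 0.33), a ratio of 0.555, and the groups did not overlap. Of the 29 bins 27 were lower and 1 was higher, where 58.4% of all 4817 such bins in the genome were lower and 17.4% higher. The median of all bins was itself shifted by -0.30, against -0.90 for the HOX bins. HOX bins started from a high level, with a median of 5.88 in siCtrl that lay above 92.2% of all bins, and other bins of that level were nearly all lower too. In a comparison chosen after seeing the data, of the 430 bins outside the clusters whose siCtrl density lay between the quartiles of the HOX bins (5.40 to 6.23), 93.7% were lower and 1.86% higher, with a median difference of -0.69 (5th to 95th percentile -1.09 to -0.11). All 15 HOX bins in the same interval were lower, with a median of -0.91. The lower density is therefore not particular to the HOX clusters, since dense bins elsewhere shared it, and the difference between the 2 medians was not tested.

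The direction was the same in all 4 clusters. In HOXA the density was 5.98 and 6.05 in siCtrl and 5.09 and 5.17 after knockdown, lower in 9 of 9 bins. HOXB went from 5.34 in both siCtrl libraries to 4.52 and 4.55, lower in 11 of 13 bins, and HOXD from 5.31 and 5.46 to 4.56 and 4.65, lower in 3 of 3. In HOXC 4 of 4 bins were lower, 5.43 and 5.56 against 4.48 and 4.59. The densest bin of HOXC held the start of HOXC12, a gene of the tail end, at 6.86 and 6.83 in siCtrl and 5.70 and 5.79 after knockdown. Narrow peaks in the 4 spans numbered 119 and 117 in siCtrl and 94 and 107 after knockdown (difference -17.5, exact permutation p = 0.33, and -11 without knockdown replicate 1). Before scaling to depth, the median HOX bin with a peak held about 476 and 514 tags in siCtrl and 402 and 415 after knockdown.

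GSK-J4 gave a density difference of like size. Over 20 bins the mean was 5.20 and 5.09 in DMSO and 4.33 and 4.41 in GSK-J4, a difference of -0.77 (SD 0.078 and 0.055, exact permutation p = 0.33) and a ratio of 0.584. Lower density was found in 18 of the 20 bins and higher density in 0, where 30.1% of all 6419 bins were lower and 29.1% higher. The median over all bins moved by 0.04, against -0.91 for the HOX bins. Again the dense bins outside the clusters were mostly lower. Of 701 such bins between the quartiles of the HOX bins in DMSO (4.46 to 5.85), 73.3% were lower and 18.3% higher, with a median difference of -0.63 (5th to 95th percentile -1.07 to 0.33). The 10 HOX bins in that interval were all lower, with a median of -0.93, and the difference between these medians was not tested. HOXA (5 of 5), HOXB (8 of 8) and HOXD (3 of 3) bins were all lower, and in HOXC 2 of 4 were. The HOXC12 bin stood at 6.51 and 6.35 in DMSO and 5.27 and 5.31 in GSK-J4. Before scaling to depth, the median HOX bin with a peak held about 296 and 276 tags in DMSO and 240 and 179 in GSK-J4. The genome background that scales the density was higher in GSK-J4 (14.3 and 10.5 tags per 10 kb) than in DMSO (8.41 and 9.55). Its part in the density difference was not tested. The number of narrow peaks did not separate the groups, at 64 and 76 in DMSO and 77 and 57 in GSK-J4 (difference -3, exact permutation p = 1), and the sign turned without GSK-J4 replicate 2 (7) or DMSO replicate 2 (3).

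**Figure D3:**
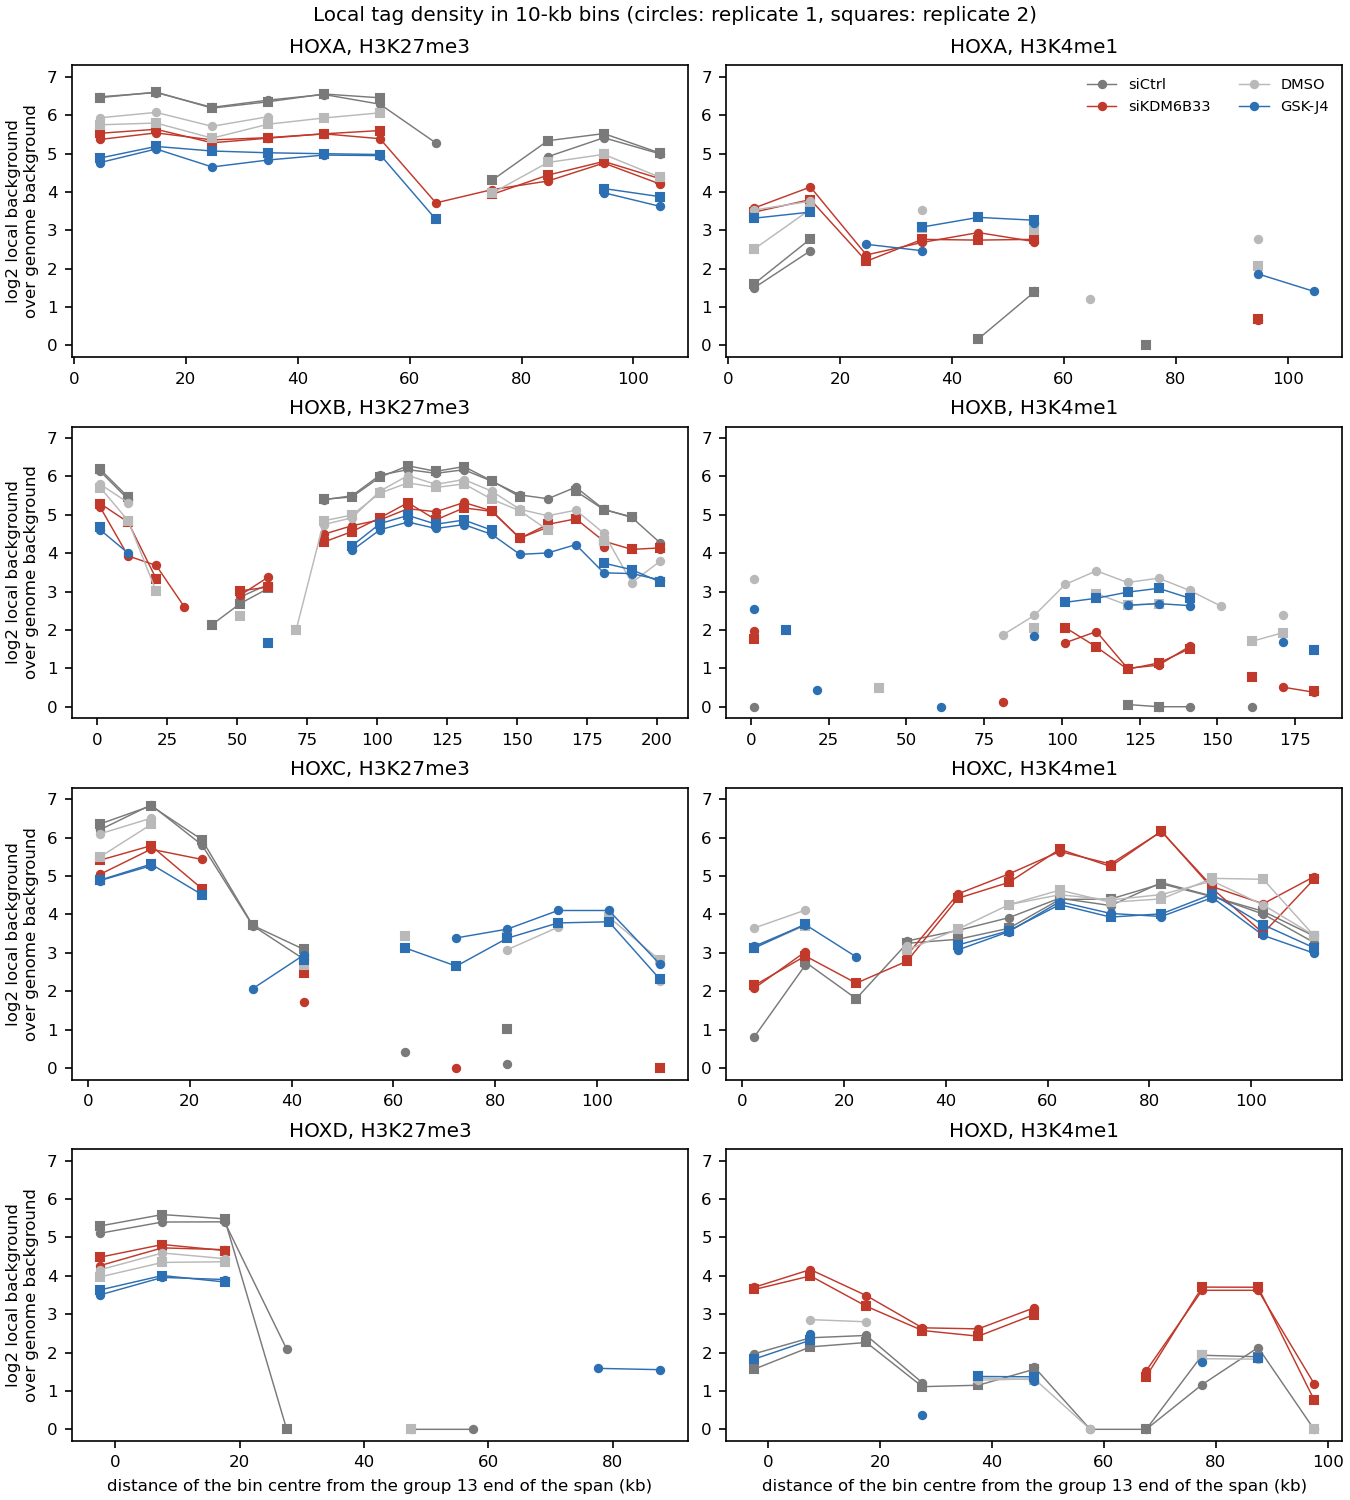
Local tag density (log2 over the genome background of the library) in 10-kb bins along each span, plotted by the distance of the bin centre from the group 13 end in kb, with 1 line per library and gaps where no narrow peak was called. Treated H3K27me3 lines run below their controls over HOXA and most of HOXB (11 of 13 bins lower and 1 higher after knockdown), and H3K4me1 lines of the knockdown libraries run above siCtrl over HOXD and most of HOXC.

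Lower density was also found in some other lists of genes. In a list of 50 other homeobox regulators, such as the DLX, LHX and NKX factors that pattern limb and brain, 33 of 36 bins were lower after knockdown, with a mean difference of -0.79, and 29 of 30 after GSK-J4, with -0.91. EVX1 and EVX2, the homeobox genes next to the tail ends of HOXA and HOXD, were lower in 2 of 2 bins after knockdown (-1.01). Polycomb and Trithorax group genes were lower in 3 of 3 bins after knockdown (-0.91) and after GSK-J4 lower in 3 of 6 and higher in 2 of 6 (-0.35), and mesenchymal markers in 3 of 3 (-0.80) and 2 of 2 (-0.75). TALE cofactors, which bind DNA with HOX proteins, had 1 bin higher and 1 lower after GSK-J4 (-0.19). The difference between the HOX bins and these lists was not tested.

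**Figure D4:**
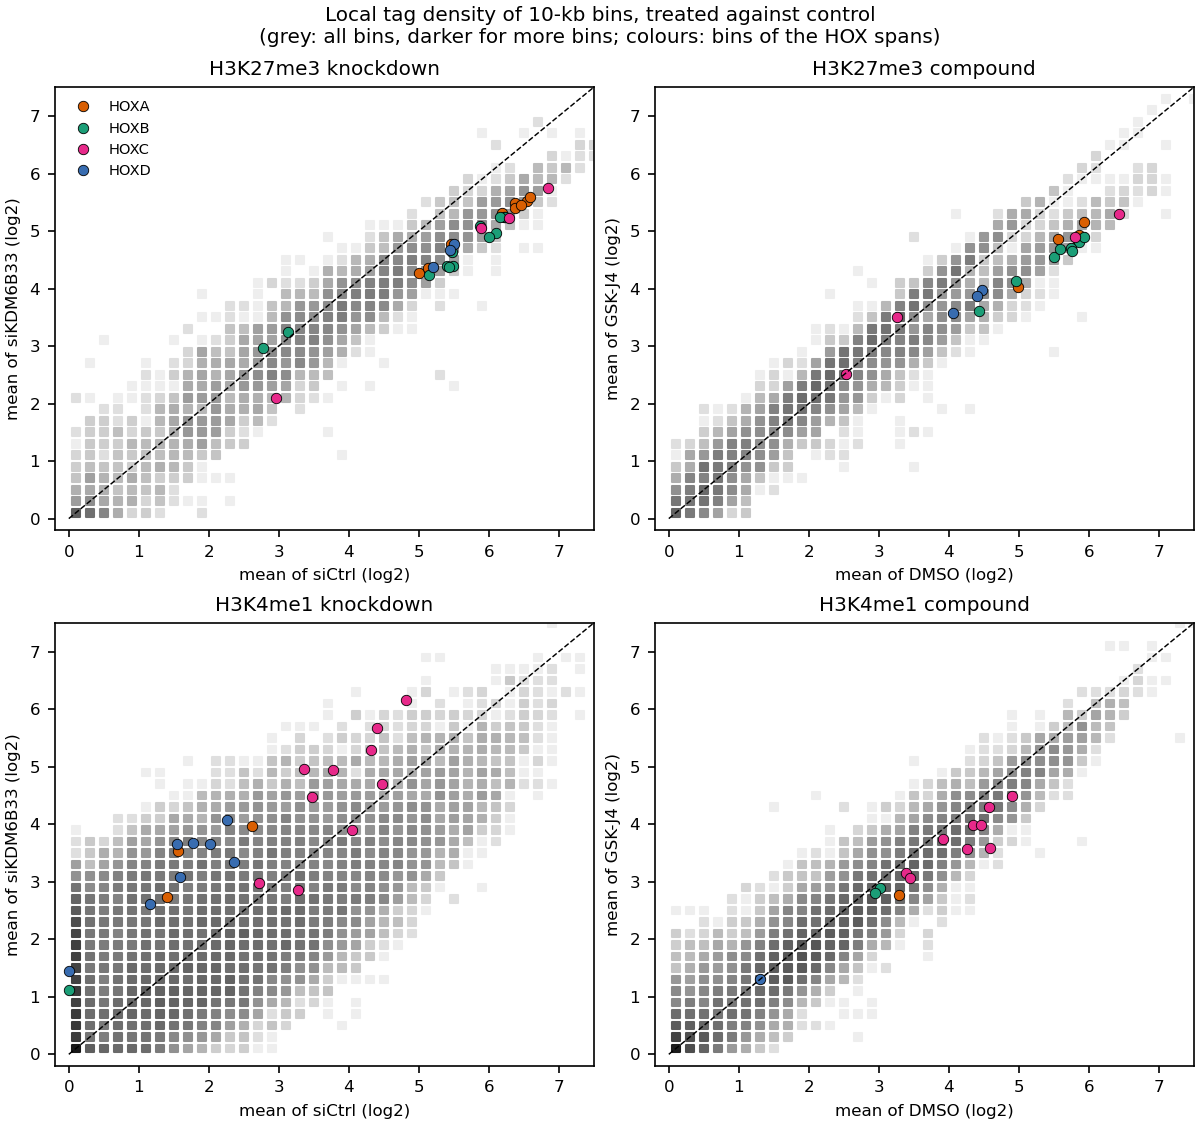
Mean local tag density of each 10-kb bin in the treated against the control libraries (log2 over the genome background), with all bins of the genome in grey by their number and the HOX bins as points coloured by cluster, for both marks and both experiments. Most H3K27me3 HOX bins sit at the dense end and below the diagonal (27 of 29 lower after knockdown, 18 of 20 after GSK-J4), as do most other bins of that density, and 20 of 22 H3K4me1 HOX bins were higher after knockdown.

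H3K4me1 was sparse in HOXA, HOXB and HOXD and dense in HOXC in the siCtrl libraries. Its islands covered 9.53 and 7.62% of HOXA, 0% of HOXB in both libraries, 73.0 and 74.2% of HOXC and 15.2 and 13.8% of HOXD. HOXC stood apart from the other clusters in both libraries. HOXA11 and HOXC5 were covered to 100% in all 8 H3K4me1 libraries, and HOXA4, HOXB1, HOXB2 and HOXD4 had no H3K4me1 island in any. Of the 200-bp windows of HOXC in siCtrl, 53.5% carried H3K4me1 without H3K27me3 in both replicates and 13.3% H3K27me3 without H3K4me1. In HOXD 72.6% of windows lay in islands of neither mark.

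H3K4me1 was higher in HOXA, HOXB and HOXD after KDM6B knockdown. Coverage was 40.4 and 35.4% in HOXA, 13.2 and 8.45% in HOXB and 46.2 and 42.9% in HOXD, while HOXC (71.2 and 83.1%) overlapped with siCtrl. Over the 4 spans it was 21.4 and 21.0% in siCtrl and 37.9 and 37.2% after knockdown, a difference of 16.4 percentage points (exact permutation p = 0.33) with no overlap. Narrow peaks in the spans numbered 73 and 81 in siCtrl and 153 and 150 after knockdown. At the starts 15 of 38 genes were higher and 0 lower. Across the genome 36.8% of all starts, and 63.1% of those with an island in at least 1 of the 4 libraries, were higher, and 1.31% lower, so a share of 39.5% (15 of 38, or 15 of 28 with an island) is not a result about the HOX genes. The median difference over the 38 starts was 11.3 percentage points, against 0 over all genes and 56.6 over all starts with an island. Bodies gave 22 of 38 higher, against 42.1% of all genes, and 0 lower, against 9.1%.

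Among the starts with the largest differences, which by the bounds of coverage must begin near 0%, several were covered by H3K27me3. HOXA5 and HOXA9, both covered by H3K27me3 throughout, went from 0% in both siCtrl libraries to 100% in both knockdown libraries. HOXA7 reached 100 and 62.3%, HOXB9 84.0 and 100%, HOXB13 100 and 94.5% and HOXC13 100 and 90.7%, each from 0% in both. At equal covered length in the 4 libraries the differences at HOXB9 and HOXB13 were 50 percentage points each, and 12 of the 38 starts were called higher. HOXD8 (100 and 91.0%) and HOXD9 (100% in both) also came from 0%, without an H3K27me3 island in any library, although siCtrl replicate 2 had 1 narrow H3K27me3 peak at HOXD9. By islands these 2 central HOXD genes had H3K4me1 alone after knockdown, whereas the HOXA and HOXB genes and HOXC13 carried both marks. The other 7 starts called higher were HOXA3, HOXA6, HOXB8, HOXC10, HOXD3, HOXD10 and HOXD12. In the compound experiment HOXA5 and HOXB9 had H3K4me1 at 100% in all 4 libraries, and HOXD8 and HOXD9 at 0% in all 4. Starts touched by both marks numbered 9 and 7 of 38 in siCtrl and 18 and 17 after knockdown, where 3.09 and 3.00% of all genes had both in siCtrl and 8.42 and 8.24% after knockdown.

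The genes at the ends of the clusters gave a range of H3K4me1 states. HOXA2, at the head end of HOXA, was at 0% in both siCtrl and both knockdown libraries, at 100 and 0% in DMSO and at 0 and 100% in GSK-J4. HOXA13, at the tail end, was at 100 and 0% in siCtrl and at 100% in the other 6 libraries. HOXD1 was at 0% except for 80.2% in knockdown replicate 1. Replicates disagreed at each of these 3 genes, and none was called. HOXD13 was at 100 and 70% in siCtrl and 100% in both knockdown libraries, which overlap. HOXC4 was at 100% in 7 libraries and 60% in GSK-J4 replicate 1. In the compound experiment HOXB13 was at 100 and 44.5% in DMSO and 100 and 84.5% in GSK-J4, and HOXC13 at 100% in both DMSO libraries and 100 and 90.7% in GSK-J4.

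H3K4me1 tag density in the clusters was higher after knockdown as well. Over 22 bins the mean was 2.59 and 2.58 in siCtrl and 3.82 and 3.71 after knockdown, a difference of 1.18 (SD 0.0073 and 0.081, exact permutation p = 0.33) and a ratio of 2.26. Higher density was found in 20 bins and lower in 1, where 47% of all 27342 bins were higher and 39.8% lower. The median of all bins differed by 0.10 (HOX bins 1.33). Of the 11038 bins outside the clusters between the siCtrl quartiles of the HOX bins (1.57 to 3.70), 35.4% were higher and 53.2% lower, and of the 10 HOX bins there 9 were higher and 1 lower, which was not tested. HOXD was higher in 8 of 8 bins (1.62 and 1.56 against 3.24 and 3.15), HOXA in 3 of 3, the 1 bin of HOXB likewise, and HOXC in 8 of 10 (3.87 and 3.86 against 4.67 and 4.52). The other homeobox regulators were higher in 27 of 28 bins, by 1.5 on average. Polycomb and Trithorax group genes were higher in 19 of 21 bins and lower in 1 (1.67), and TALE cofactors higher in 5 of 6 (1.43). Mesenchymal markers were higher in 3 of 4 (1.03), and adrenergic markers higher in 6 of 8 and lower in 2 (0.95). The higher density was therefore not particular to the HOX clusters, and the difference from these lists was not tested.

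HOXC held the strongest H3K4me1 of the clusters. The bin of the HOXC4 start had a density of 4.83 and 4.80 in siCtrl and 6.16 and 6.17 after knockdown. It lay above 97.3 and 97.1% of all bins with a peak in the siCtrl libraries and above 99.8% in both knockdown libraries. Each library has its own set of such bins, so these shares are given side by side and not compared. At the HOXC4 start itself the highest narrow peak had a pileup, the number of overlapping tags at its summit, of 13 and 24 in siCtrl and 61 and 65 after knockdown. From HOXC10 to HOXC4 there were 40 and 45 peaks in siCtrl and 56 and 53 after knockdown. Their median pileup was 14.5 and 14 in siCtrl against 29 and 30, and the highest pileup 43 and 45 against 100 and 113. Pileups are in tags and are not scaled to depth, and the H3K4me1 genome background was 25.5 and 24.0 tags per 10 kb in siCtrl and 30.2 and 29.7 after knockdown. The top HOXC island ranked 218 and 200 of 21534 and 21698 islands in siCtrl and 13 and 18 of 24828 and 24916 after knockdown, with widths of 51.6 and 60.8 kb and of 57.8 and 51.6 kb.

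No such difference was found with GSK-J4. H3K4me1 islands covered 49.5 and 33.5% of the 4 spans in DMSO and 34.5 and 44.5% in GSK-J4 (difference -1.99, exact permutation p = 1). Without DMSO replicate 1 the difference was 6.04 and without GSK-J4 replicate 1 it was 3.02. The DMSO replicates differed from each other by more than the groups did, with HOXB at 45.7 and 16.1%. Of the 38 starts 1 was higher, HOXB8, at 60 and 2.65% in DMSO and 100% in both GSK-J4 libraries, against 1.39% of all genes and 5.25% of starts with an island. Lower were 2, HOXC8 (100% in both DMSO libraries, 60 and 61.6% in GSK-J4) and HOXD13 (87.6 and 100% against 80 and 82.4%), against 4.14% of all genes and 15.7% of starts with an island. Without DMSO replicate 1 the count of higher starts was 5, and without DMSO replicate 2 that of lower starts was 7. The HOXC8 difference was 0 with islands joined within 2 kb, and that of HOXD13 was -52.6 with islands of at least 2 kb. Bodies gave 0 higher (8.97% of all genes) and 1 lower, HOXA13 (6.56% of all genes). In tag density 0 of 13 bins were higher (23.6% of all 14990 bins) and 7 were lower (40.4%), with a mean difference of -0.37 (exact permutation p = 0.33). Without GSK-J4 replicate 1 it was -0.24 (exact permutation p = 0.67). All 7 lay in HOXC, where the density was 4.22 and 4.20 in DMSO and 3.74 and 3.78 in GSK-J4. The HOXC4 bin was at 4.52 and 4.41 in DMSO and 3.95 and 4.02 in GSK-J4, opposite in sign to its difference after knockdown, although the difference between the experiments was not tested.

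The head end of HOXC, from HOXC9 to HOXC4, carried H3K27me3 islands in the compound experiment and not in the siRNA experiment, in control and treated libraries alike. The 5 starts were HOXC4, HOXC5, HOXC6, HOXC8 and HOXC9, named after their values were seen. All had 0% H3K27me3 in the 4 siRNA libraries. In DMSO and then GSK-J4, HOXC4 had 100 and 100% then 100 and 55.7%, HOXC5 100% in all 4, and HOXC9 93.9 and 100% then 73.9 and 93.9%. HOXC6 had 0 and 100% then 0 and 100%, and so was covered in replicate 2 of each group. H3K27me3 peaks from HOXC10 to HOXC4 were weaker than those from HOXC13 to HOXC11. In the compound libraries their median pileup was 7.5 and 7 in DMSO and 9 and 6 in GSK-J4. Over all H3K27me3 peaks of each library it was 3 and 3 in DMSO and 4 and 3 in GSK-J4. From HOXC10 to HOXC4 there were 4 and 2 narrow peaks in siCtrl, 3 and 2 after knockdown, 4 and 5 in DMSO and 10 and 12 in GSK-J4, with a highest pileup of 4 to 16 over the 8 libraries, against 19 to 48 from HOXC13 to HOXC11.

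H3K4me1 covered the same stretch in both experiments. The share of H3K4me1 island bases that also lay in H3K27me3 islands of the same condition and replicate was 22.2 and 26.0% of HOXC in siCtrl, 24.0 and 30.0% after knockdown, 82.7 and 89.1% in DMSO and 82.3 and 84.3% in GSK-J4. Genome-wide the share differed in the same way, at 4.71 and 4.89%, 8.87 and 8.70%, 43.3 and 47.6%, and 58.8 and 49.2%. The KDM6B gene's own start, which had H3K4me1 at 100% in all 8 libraries, had H3K27me3 at 0% in the 4 siRNA libraries and at 96.7 to 100% in the compound libraries. The noradrenaline enzymes DBH and TH had 0% H3K27me3 in siCtrl and 100% in all 4 compound libraries, and after knockdown DBH had 100 and 95.8% and TH 87.8 and 0%. The control treatment and the experiment cannot be told apart here, and the part of the genome-wide overlap of the marks in the HOXC result was not tested.

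**Figure D5:**
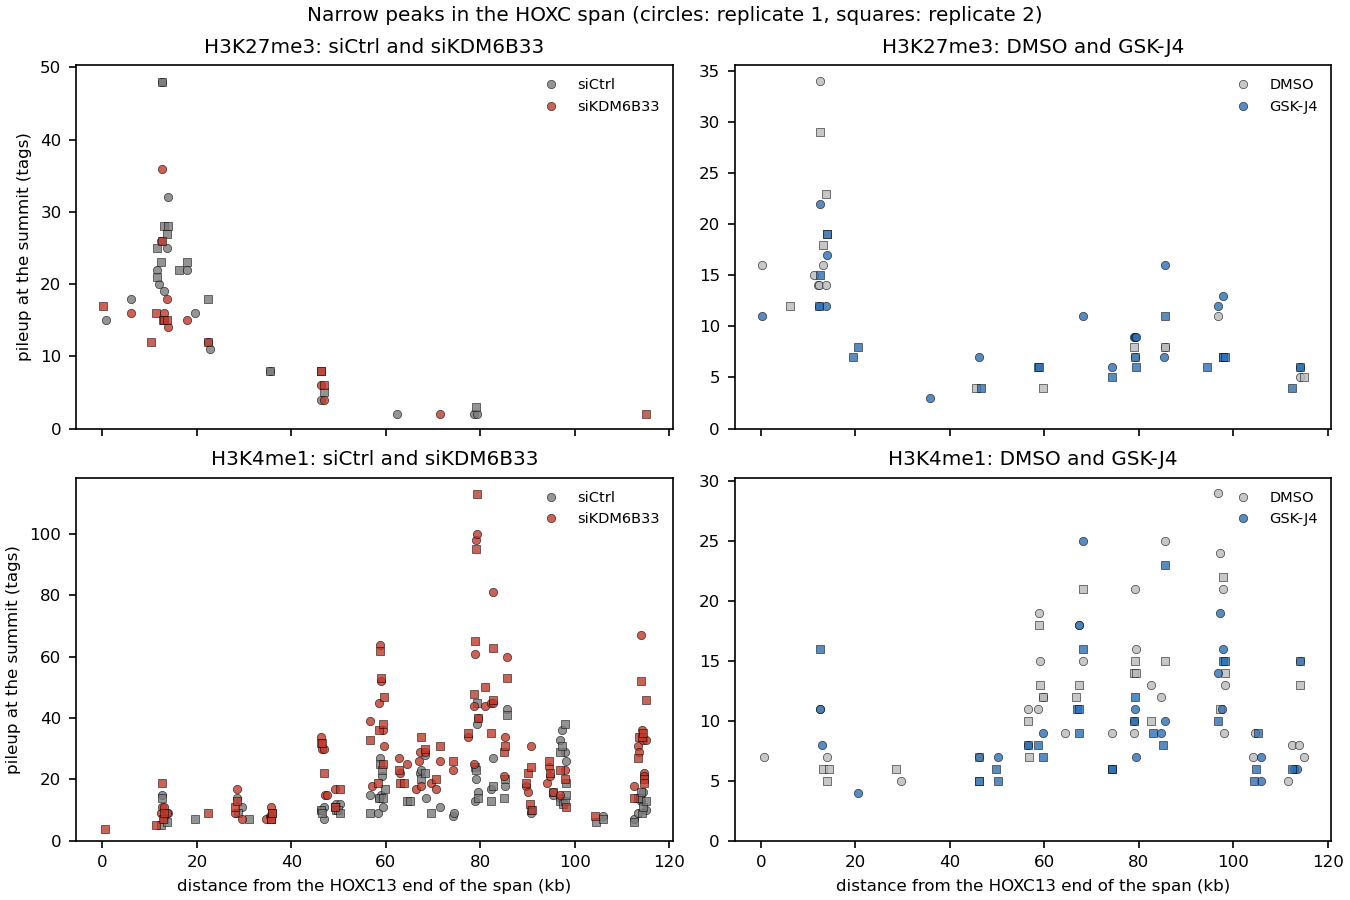
Narrow peaks across the HOXC span by library, with the distance from the HOXC13 end in kb on the horizontal axis and the pileup at the summit in tags on the vertical axis, for both marks. H3K27me3 peaks from HOXC10 to HOXC4 stay at a pileup of 16 or less in these 8 libraries, and H3K4me1 peaks reach 100 and 113 in the HOXC10 to HOXC4 part of the knockdown libraries.

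The annotation placed 25 long noncoding RNA genes and 7 microRNA genes inside the spans. The mature microRNAs of 4 of the 7 loci are shown with the seed (bases 2 to 8, the part that pairs with targets) in capitals. The miR-196 loci share a seed and lay in clusters whose state differed in the siRNA libraries, and miR-615-3p, with another seed, comes from within HOXC5. The sequences are those of RefSeq.
hsa-miR-196b-5p: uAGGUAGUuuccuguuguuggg
hsa-miR-196a-5p: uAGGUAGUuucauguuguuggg
hsa-miR-615-3p: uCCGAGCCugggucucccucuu
The miR-196 microRNAs, which target HOX messages, come from MIR196B in HOXA and from MIR196A1 in HOXB and MIR196A2 in HOXC, the last 2 giving the same mature sequence. MIR196B and MIR196A1 starts had H3K27me3 at 100% in all 8 libraries. MIR196A2 had 0% in all 4 siRNA libraries, and H3K4me1 at 100% in the 4 H3K4me1 libraries of that experiment. In the compound experiment MIR196A2 had H3K27me3 at 84.0% in DMSO replicate 2 and 74.0% in GSK-J4 replicate 2 and 0% in both replicates 1, and MIR196B had H3K4me1 at 70.9 to 100%. MIR615, inside HOXC5, had the values of HOXC5, and MIR10B, beside HOXD4, had no island of either mark in any library. After knockdown H3K4me1 was called higher at 6 of 25 long noncoding and 2 of 7 microRNA starts, with 0 lower, where 36.8% of protein-coding starts were higher. After GSK-J4 it was called higher at 1 of 25 and 0 of 7 and lower at 2 of 25 and 2 of 7, where 1.39% of protein-coding starts were higher and 4.14% lower. HOTAIR, a long noncoding RNA that runs antisense beside HOXC11 known for its ties to PRC2, was one of the 6, at 63.0 and 53.0% in siCtrl and 93.0 and 100% after knockdown. H3K27me3 was called in 0 of 32 noncoding starts after knockdown, where 2.64% of protein-coding starts were higher and 1.04% lower. After GSK-J4 it was called higher at 0 and lower at 1 microRNA start, where 0.983% and 1.03% of protein-coding starts were.

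Genes that work with the HOX factors or set their chromatin were read from lists of names. TALE cofactors (the PBX, MEIS and PKNOX proteins that bind DNA together with HOX proteins) had H3K4me1 called higher at 4 of 9 starts after knockdown, 0 lower, against the background of 36.8% given above. MEIS1, for example, was at 0% in both siCtrl libraries and 100% in both knockdown libraries. H3K27me3 was called at 0 of 9. Polycomb and Trithorax group genes had H3K4me1 called higher at 14 of 31 starts and lower at 0. EZH2, the PRC2 enzyme, went from 0% in both siCtrl libraries to 99.4 and 89.4%. H3K27me3 was called higher at 0 of 31 starts. BMI1, a part of the Polycomb complex PRC1, had H3K27me3 over 71.3 and 61.3% of its start in siCtrl and 0% in both knockdown libraries. Of the caudal genes, which activate HOX genes of the trunk, CDX2 was covered by H3K27me3 to 100% in all 8 libraries.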

How the data were processed

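CUT&Tag of H3K27me3 and H3K4me1 was measured in 16 BE2C libraries. According to the methods and the submitters' processing notes, the authors trimmed reads with Trim Galore 0.4.4, aligned them to hg19 with BWA 0.7.12, removed duplicates with Picard 1.65 and kept fragments of 150 to 2000 bp with SAMtools 1.3.1. Islands were called by the authors with SICER 1.1 (200-bp windows, 600-bp gaps, effective genome fraction 0.86) and deposited with a score per island. For narrow peaks the authors ran MACS2 (q 0.05, version 2.1.1 in the processing notes), and these were deposited with a fold enrichment ratio. The deposited narrow peaks also carry a −log10 p and a −log10 q, from which, with pileup and fold, the local background was derived. The authors' test on reads per region (voom and limma) needs reads that the lists do not hold, so groups were compared by coverage, counts and densities of regions.

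Genes were those of GENCODE 44 mapped to hg19, and 0 regions lay past the end of an hg19 chromosome. Starts spanned 1 kb on each side. A difference was called when both treated libraries lay above or below both controls, and means were compared by a two-sided exact permutation test. Peak statistics were solved for the 2 backgrounds of each peak and averaged in 10-kb bins. All calls were computed over every protein-coding gene or bin. Depth is known only through the genome background, and intervals of counting error could not be given. Replicate pairs with identical lists numbered 0, and columns of other samples 0. Scripts used Python 3.11.15, NumPy 2.4.6, pandas 2.3.3, SciPy 1.17.1 and matplotlib 3.10.9, and were tested on simulated data.

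Genes named were, per comparison, up to 8 HOX genes with the largest difference in start coverage among those called, starts at 0 or 100% in all 8 libraries of a mark, and the first and last gene of each cluster, with up to 4 examples from each other list. HOX genes named beyond this rule were chosen after their values were seen. The members and lists were chosen with earlier results of these data known. Of the 39 HOX genes 1 is not reported here. Alternatives were equal covered length, islands of at least 2 kb, joined islands, narrow peaks in place of islands, wider or other starts, q thresholds, bin size, scaling, each library left out and the replicate block.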

Additional observations from a re-analysis of the deposited data

How the results depend on the processing

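Of 208 alternative values of the counts, coverages and densities over the clusters, 173 kept their direction or, for counts, stayed within 1.5 times. Another 31 moved and 4 reversed, and of 84 values of single genes 1 reversed. For span coverage, narrow peaks and density the replicate block repeats the main value, so those values among the 173 could not differ. Kept direction does not mean kept size: with 1 library left out, H3K27me3 span coverage after GSK-J4 ran from -9.75 to -1.20, the H3K27me3 peak difference after knockdown from -24 to -11, and the H3K4me1 peak difference after GSK-J4 (-11) from -21.5 to -0.5. The lower H3K27me3 density after both treatments and the higher H3K4me1 density after knockdown kept their direction under every alternative run, the replicate block aside. Scaled by the median of all bins, the differences were -0.67 and -0.84 for H3K27me3 after knockdown and GSK-J4, and 0.89 for H3K4me1 after knockdown. The cause of the changes below was not tested.

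H3K27me3 span coverage after knockdown, equal in the main comparison, differed by -1.69 percentage points at equal covered length, -0.0582 with islands of at least 2 kb, 0.0582 with islands joined within 2 kb, -0.172 from narrow peaks, and -1.77 to 1.77 with 1 library left out. H3K27me3 starts called higher after knockdown numbered 1 from narrow peaks and 0 to 1 with a library left out. Those called lower after knockdown (1 in the main comparison) numbered 2 at equal covered length, 0 with joined islands, 5 from narrow peaks, 0 over all transcript starts, 0 at MANE Select starts (an alternative chosen after seeing the data), and 1 to 2 with a library left out. After GSK-J4, H3K27me3 starts called higher numbered 1 with 2 kb each side, and those called lower 1 at MANE Select starts and 3 to 7 with a library left out (7 without GSK-J4 replicate 2). The H3K27me3 peak difference after GSK-J4 ranged from -13 without GSK-J4 replicate 1 to 7 without replicate 2, and was 3 without DMSO replicate 2.

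H3K4me1 starts called lower after knockdown numbered 1 with 2 kb each side and 0 to 1 with a library left out. H3K4me1 span coverage after GSK-J4 differed by -10.0 to 6.04 with a library left out (6.04 without DMSO replicate 1, 3.02 without GSK-J4 replicate 1). H3K4me1 starts called higher after GSK-J4 numbered 0 with joined islands and 1 to 5 with a library left out (5 without DMSO replicate 1). Those called lower numbered 1 with joined islands, 0 from narrow peaks, 4 with 2 kb each side and 3 to 7 with a library left out (7 without DMSO replicate 2). The difference in HOXD13 body coverage by H3K4me1 after GSK-J4 went from 6.20 to -5.46 with islands of at least 2 kb.

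With the replicate block, 1 start was called lower for H3K4me1 after knockdown in place of 0 and 3 for H3K27me3 after GSK-J4 in place of 2, and no other count changed. Deviations of same-numbered libraries correlated at 0.0090 and 0.65 for H3K27me3 (knockdown, GSK-J4) and -0.029 and -0.27 for H3K4me1, and with 2 pairs the numbers establish no pairing. Depth limits the density to bins with a narrow peak in all 4 libraries.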

Other observations

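The 50 kb on either side of each span showed how far the H3K27me3 domains reached past the HOX genes. Before HOXB, towards lower coordinates, H3K27me3 islands covered 35.4 and 49.2% of the flank in siCtrl and 88.4 and 77.2% after knockdown, and 28.6 and 29.0% in DMSO against 13.8 and 43.8% in GSK-J4. This flank lies outside the HOXB1 end, and H3K4me1 was at 0% in it in all 8 libraries. After HOXC, beyond the HOXC4 end, H3K27me3 was at 0% in 7 of 8 libraries and at 7.2% in GSK-J4 replicate 1. Beyond the HOXD1 end both marks were at 0% in all 16 libraries. Past HOXA13, where EVX1 lies, H3K27me3 covered 70.8 to 90.8% over the 8 libraries.

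EVX1, a homeobox factor of the posterior body, had H3K27me3 at 100% of its start in all 8 libraries. Its H3K4me1 was at 0% in both siCtrl libraries and at 100 and 75.9% after knockdown. The neighbouring HOXA13 start thus shared its H3K27me3 state. Split by paralog group, the mean H3K27me3 start coverage in siCtrl was 63.6% in both libraries over the 11 genes of groups 1 to 4, 63.6% in both over the 11 of groups 5 to 8, and 86.1 and 85.1% over the 16 of groups 9 to 13. Mean H3K4me1 start coverage in siCtrl was 9.09 and 16.6%, 27.3% in both, and 54.7 and 41.2% in the same order. In siCtrl both marks were thus higher on average in the tail-end groups, and the groups share libraries and neighbours and were not tested against each other. Every HOXA and HOXB start was at 100% H3K27me3 in siCtrl, so for that mark the difference came from HOXC and HOXD alone. In DMSO, H3K4me1 was at 82.3 and 50.1% in groups 5 to 8 and at 79.3 and 72.2% in groups 9 to 13.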
